A study of Mus musculus with 2 samples.

Results

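Schwann cells ensheathe the nerve fibres of the skin, and 7 genes known from these cells and from their myelin were followed in newborn mouse skin with and without Sdr9c7: Pmp22, Mbp, Sox10, S100b, Erbb3, Ngfr and Gap43. They were chosen by name, as the probes that the array design assigns to these symbols. This gave 10 probes printed at 19 spots, out of 39417 probes and 22719 gene names measured on both arrays. The study compared dorsal skin of wild type mice (Sdr9c7+/+) with that of Sdr9c7-/- (knockout) mice, all on the C57BL/6J background and taken at postnatal day 0. Sdr9c7 encodes a dehydrogenase/reductase that the study's title ties to the acylceramides of the skin barrier. Each genotype was 1 array, hybridised with total RNA pooled in equal amounts from 5 animals, so there is no replicate check and no test behind any difference given here. The series' design text speaks of epidermis, whereas the sample labels name skin. The allele is described only as a knockout; which exons it lacks was not stated in the labels.

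Schwann cells arise from the neural crest, as melanocytes do. Those that wrap large axons build the myelin sheath, while others hold thin sensory axons in bundles without myelin. SOX10 is the transcription factor that specifies this lineage and keeps it going. It drives the myelin genes together with EGR2, and neuregulin from the axon sustains the cells through the receptor pair ERBB2 and ERBB3. NGFR, the low-affinity neurotrophin receptor, and GAP43 are typical of immature and non-myelinating Schwann cells, and GAP43 is also a protein of growing axons. None of these genes is restricted to Schwann cells in skin: melanocytes use SOX10 and ERBB3, and PMP22 is made by fibroblasts and epithelia as well.

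The sequences that read these transcripts are shown because each value below rests on the signal of such probes, each 60 bases long. The value of Pmp22 is a mean over 2 probes and that of Mbp over 3, and the other 5 genes have 1 probe each. The Mbp probes are not shown. The positions are those of the array files, on mm9. The probes of Erbb3 (chr10:128006424-128006483, minus strand) and of the first Pmp22 site (chr11:62971862-62971921, plus strand) each hold a forward frame whose only stop codon, TGA, lies in the last 12 bases. That stop is in capitals, and the frame is printed from its first base through the stop. Among all 39429 probes on the array, 8.75% hold such a frame, so the frame alone does not place a probe in coding sequence. For 5 further probes the last 30 bases are given, with the letters AATAAA, the common polyadenylation signal, in capitals where present. These are Pmp22 at chr11:62972989-62973048 (plus), Sox10 at chr15:78985518-78985577 (minus), S100b at chr10:75723783-75723842 (plus), Ngfr at chr11:95430211-95430270 (minus) and Gap43 at chr16:42248714-42248773 (minus).
Erbb3: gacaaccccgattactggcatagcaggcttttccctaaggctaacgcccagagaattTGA
Pmp22, first site: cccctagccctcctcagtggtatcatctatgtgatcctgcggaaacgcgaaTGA
Pmp22, second site: gatgcatcaaAATAAAcatcagagtaactc
Sox10: tccagcgataccttAATAAAgtacgtagct
S100b: tattcaaatagcgacgttttaaataatcca
Ngfr: ttcatgttccctgacacttcccctttgcat
Gap43: tgaattcaaaaaccatttctgtttcctcat
The letters AATAAA stood in 2 of the 10 member probes on either strand, those of Sox10 and of the second Pmp22 site, against 16.2% of all probes on either strand. The Pmp22 sites lie 1.07 kb apart. Probes were not placed in exons or UTRs, because no annotation of mm9 was used here.

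Signals were compared after each array was scaled to its 75th percentile over all probes, so a relative signal of 1 equals that percentile, and a difference is the log2 signal of the knockout minus that of the wild type. Probes well above background made up 74.9% of the wild type array and 76.8% of the knockout array, with 0 saturated spots. Sdr9c7 itself read 0.324 in wild type and 0.0479 in the knockout, 6.78-fold lower, on a single probe that may or may not lie in the deleted part. Of 11 defining Schwann cell markers, 10 were measured on both arrays, where most of all probes were well above background too. Sox10, S100b, Mbp, Erbb3 and Ngfr among these are members themselves, so they are no independent check of the label. Cdh19, which is not a member, was dim, at 0.0274 in wild type and 0.0244 in the knockout. The marker Pmp2, a lipid-binding protein of peripheral myelin, was not well above background on either array. Of the oligodendrocyte genes, Olig2, Opalin and Hapln2 were likewise not well above background on either array. All 10 member probes were well above background on both arrays. In bulk skin, fewer cells of a type and less RNA per cell cannot be told apart.

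No member reached a 2-fold difference, and none reached 1.5-fold. Over all measured gene names 1.88% were at least 2-fold apart (0.528% higher and 1.36% lower in the knockout) and 8.41% at least 1.5-fold (2.36% higher and 6.05% lower), so a list of 7 genes with none past either threshold is near the background. The members ran from −0.46 for Pmp22 to 0.24 for Gap43 on the log2 scale, with 4 below 0 and 3 above. Over all genes 56.9% lay below 0 and 43.1% above. The median over the 7 was −0.11, beside −0.04 over all genes, and their median distance from 0, 0.15, was close to the 0.16 of all genes. The spread between probes was of similar size: probes of 1 gene differed among themselves with a pooled SD of 0.25 (5176 genes with several probes). Repeat spots of 1 probe differed less, with a median SD of 0.06 (326 probes with at least 8 spots). Among probes of like signal, within 0.5 log2 units, the middle 95% of differences held all 10 member probes.

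**Figure D1:**
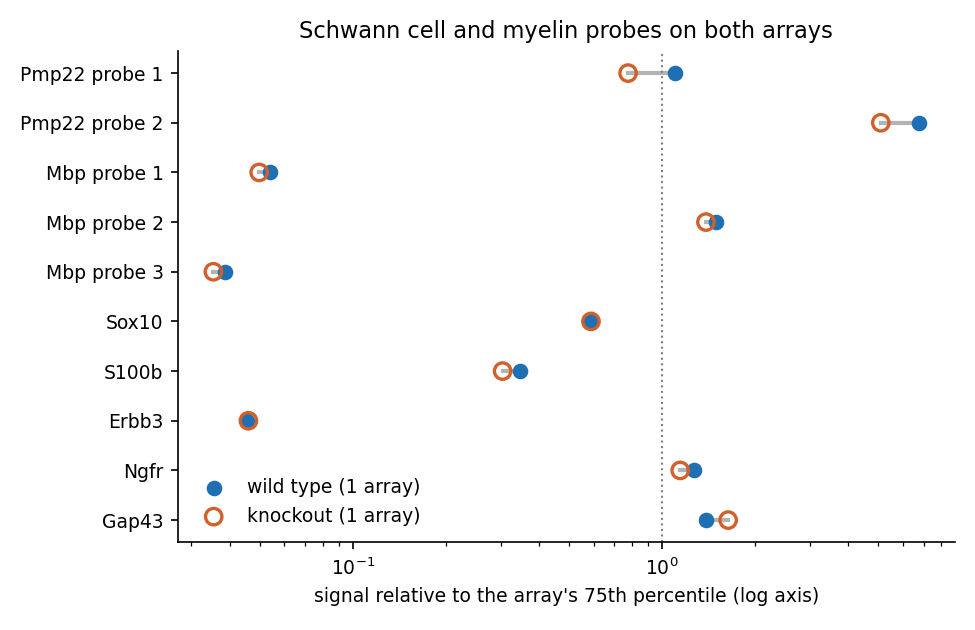
Signal of each member probe on the wild type array (filled) and the knockout array (open), relative to the array's 75th percentile, on a log axis; each point is 1 array of pooled RNA, so there are no error bars. The points of Sox10 and Erbb3 coincide, both Pmp22 probes lie to the left in the knockout, and Gap43 lies to the right; positions of different probes are not comparable, since probes bind with different strength.

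**Figure D2:**
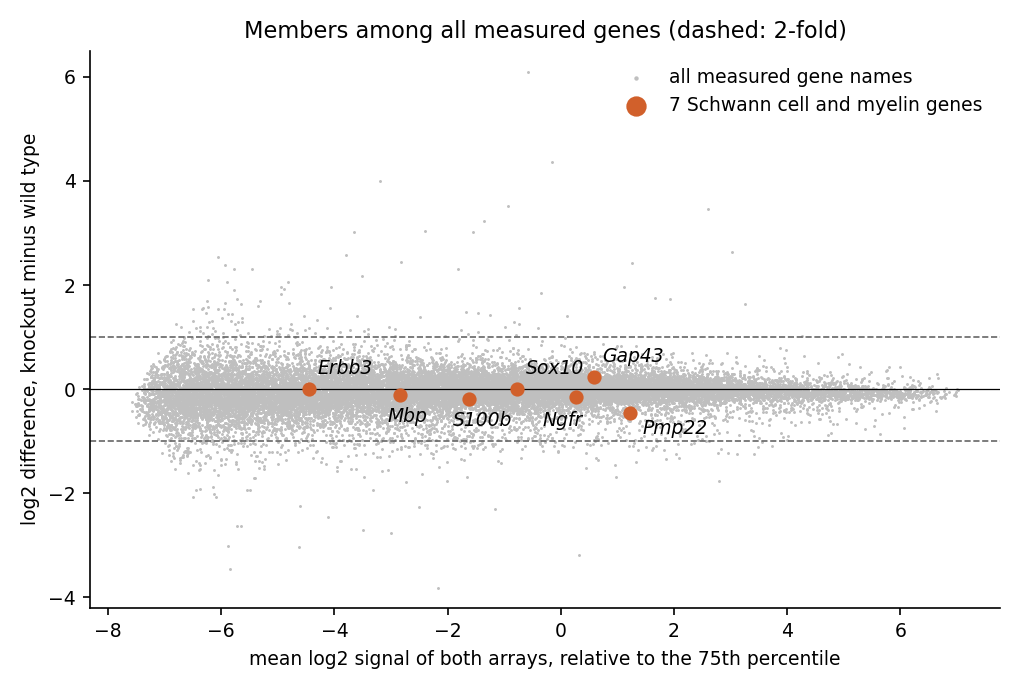
Log2 difference between the arrays against the mean log2 signal for all 22719 measured gene names (grey) and the 7 members (orange), with dashed lines at 2-fold. The members lie inside the body of the grey cloud, from −0.46 to 0.24.

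Of the myelin proteins, Pmp22 had the largest difference of the 7 genes. It encodes a tetraspan protein of compact peripheral myelin whose dosage underlies hereditary neuropathies. At the first site its signal was 1.096 in wild type and 0.776 in the knockout, a difference of −0.50 or 1.41-fold. At the second site the signal was 6.79 in wild type and 5.09 in the knockout, −0.42 or 1.33-fold. Both probes were therefore lower in the knockout by similar amounts, with an SD between them of 0.06. Their mean, −0.46, was 1.37-fold, and 9.44% of all measured genes had a difference at least as low. Probes with a signal like that of the second site ran from −0.57 to 0.35 over their middle 95%, and 4.18% of them were at least as low. The first probe lay in rows of the slide where dim spots scattered more (SD 0.49, against 0.38 elsewhere). The second lay outside those rows and was by itself at −0.41 when they were left out.

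Mbp encodes myelin basic protein, which holds the cytoplasmic faces of the sheath together. Its 3 probes read 0.0539, 1.49 and 0.0385 in wild type and 0.0497, 1.39 and 0.0353 in the knockout. The bright probe lies 36.4 kb downstream of the first, and the third has no genome position in the array files. Differences were −0.12, −0.10 and −0.12, an SD of 0.0093 between probes. The gene's mean of −0.11, or 1.08-fold, was exceeded in distance from 0 by 62.3% of all genes, so the probes were alike in a difference that most genes matched or passed.

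Sox10 was level. Its single probe read 0.586 in wild type and 0.588 in the knockout, a difference of 0.0066. At least as far from 0 were 97.6% of measured genes. S100b, a calcium-binding protein used to mark Schwann cells, read 0.348 in wild type and 0.305 in the knockout, a difference of −0.19 or 1.14-fold. Probes with a signal like that of S100b ran from −0.92 to 0.57 over their middle 95%, and 23.9% of them were at least as low. The lineage factor and the cytoplasmic marker thus both lay within the spread of their neighbours in signal. The Sox10 probe stood in the rows of greater scatter, and the S100b probe outside them.

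Erbb3, the neuregulin receptor subunit on which survival of the Schwann cell precursor depends, was also level, at 0.0455 in wild type and 0.0459 in the knockout. The difference was 0.013. With this dim signal, 1.01-fold apart, the sign was not fixed: after normexp background correction the difference was −0.068. Erbb3 lies on the chromosome of the deleted gene, its probe 658 kb from that of Sdr9c7 on chromosome 10 (mm9).

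The Ngfr probe was printed at 10 spots, which shows how precisely 1 array reads a transcript. On the wild type array the spots read from 1.24 to 1.33 with a median of 1.27 (mean 1.27 ± 0.0298, SD of 10 spots). On the knockout array they read from 1.11 to 1.22 with a median of 1.14 (mean 1.14 ± 0.0312). After this scaling wild type and knockout spots did not overlap, and each of the 10 was lower in the knockout, from −0.21 to −0.10, with a mean difference of −0.15 ± 0.04 (SD of 10 spots) or 1.11-fold. The separation rests on the scaling. Before any scaling, the scanner intensities overlapped (2163 to 2318 in wild type, 2136 to 2346 in the knockout). There 6 spots were lower and 4 higher in the knockout, with a mean difference of −0.01, a comparison chosen after seeing the data. In the ratios of the deposited series matrix all 10 were lower, with a mean of −0.14, and the spots did not overlap. Under median scaling all 10 spots were lower, with a mean of −0.11, but 1 knockout spot lay above the lowest wild type spot. Spots of 1 array share the RNA, its labelling and the scaling, so their SD holds the reading error and says nothing of the spread between animals. Over the 326 probes with at least 8 spots the SD between spots had a median of 0.06. Of all measured genes, 52.3% were at least as far from 0 as Ngfr.

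**Figure D3:**
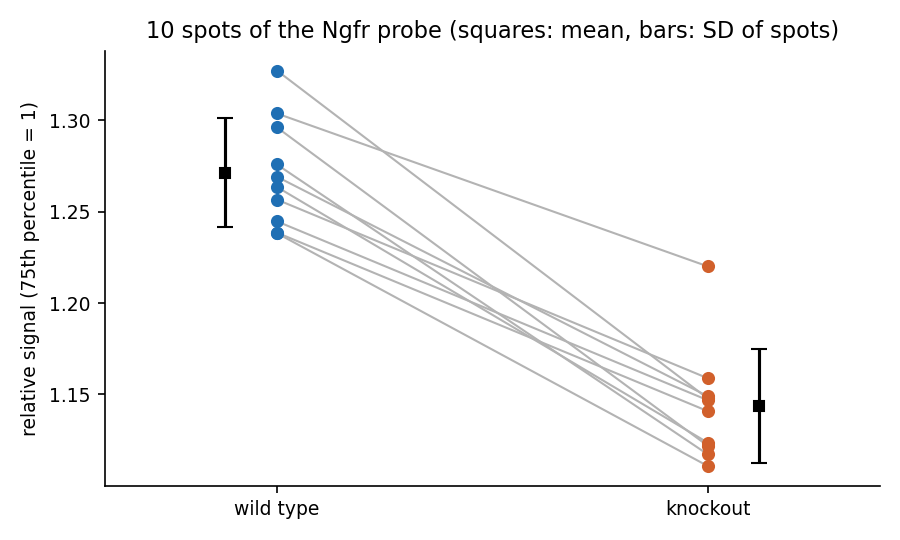
Relative signal of the 10 spots of the Ngfr probe on each array (the vertical axis does not start at 0), with lines joining the same spot; squares and bars are the mean and SD over spots of 1 array, not over animals. Scaled in this way, wild type spots lie between 1.24 and 1.33, all above the knockout spots at 1.11 to 1.22; the unscaled intensities overlap.

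Gap43, the growth-associated protein of regenerating axons and immature Schwann cells, was the highest of the 7. Its probe read 1.39 in wild type and 1.63 in the knockout, 0.24 higher on the log2 scale or 1.18-fold. At least as high were 13.2% of all genes, and 12.4% of the probes of like signal. Gap43 therefore stood on the other side of 0 from Ngfr, which it resembles in where it is made. The Gap43 probe lay in the rows of greater scatter, so the gene has no value with those rows left out.

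A wider list of myelin and node genes had 23 of 24 members measured, Pmp22 and Mbp included, and 21 of the 23 were below 0, or 91.3%, beside 56.9% of all genes. Their median was −0.21, against −0.04 over all genes. No gene of the list reached 2-fold, and 2 were at least 1.5-fold lower. Those were Gldn, gliomedin, which gathers sodium channels at the node of Ranvier, at −0.83 (0.0867 in wild type and 0.0489 in the knockout), and Ncmap, a noncompact myelin protein, at −0.74, with its 2 probes at −0.70 and −0.78. Over all genes 6.05% were at least 1.5-fold lower. Next came Cldn19, the claudin of Schwann cell tight junctions, at −0.58, with a wild type signal of 0.00999 close to the lowest counted as well above background (0.00563). At the upper end stood Fa2h, the hydroxylase of myelin sphingolipids that keratinocytes also use, at 0.15, Ugt8a, which makes galactosylceramide, at 0.0067, and Gjc3, a glial connexin, at −0.08. Without Pmp22 and Mbp the other 21 genes had the same median, −0.21, and 19 were below 0. With the damaged block of the slide and the scattering rows left out the median was −0.21 over 20 genes, 17 of them below 0.

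Among defining Schwann cell markers, 5 of them members, 8 of the 10 measured were below 0, with a median of −0.18 and none at 1.5-fold. Over all genes 56.9% lay below 0, with a median of −0.04, and 8.41% were at least 1.5-fold apart. Summed over the 10 markers the relative signal was 8.86 in wild type and 7.84 in the knockout. Genes of the Schwann lineage and its promyelin regulators were more evenly placed: 19 of 31 measured were below 0 and 12 above, with a median of −0.10 and none at 1.5-fold. Their share below 0, 61.3%, was near that of all genes. At their low end stood Aspa, aspartoacylase, at −0.45, the neural crest factor Foxd3 at −0.44, and the juxtaparanodal potassium channel gene Kcna1 at −0.41. Nab2, a corepressor of the EGR factors, was highest at 0.48, with Fabp7, a lipid carrier of Schwann cell precursors, at 0.29 and the adhesion molecule L1cam at 0.28. The Foxd3 probe lay in the damaged block.

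**Figure D4:**
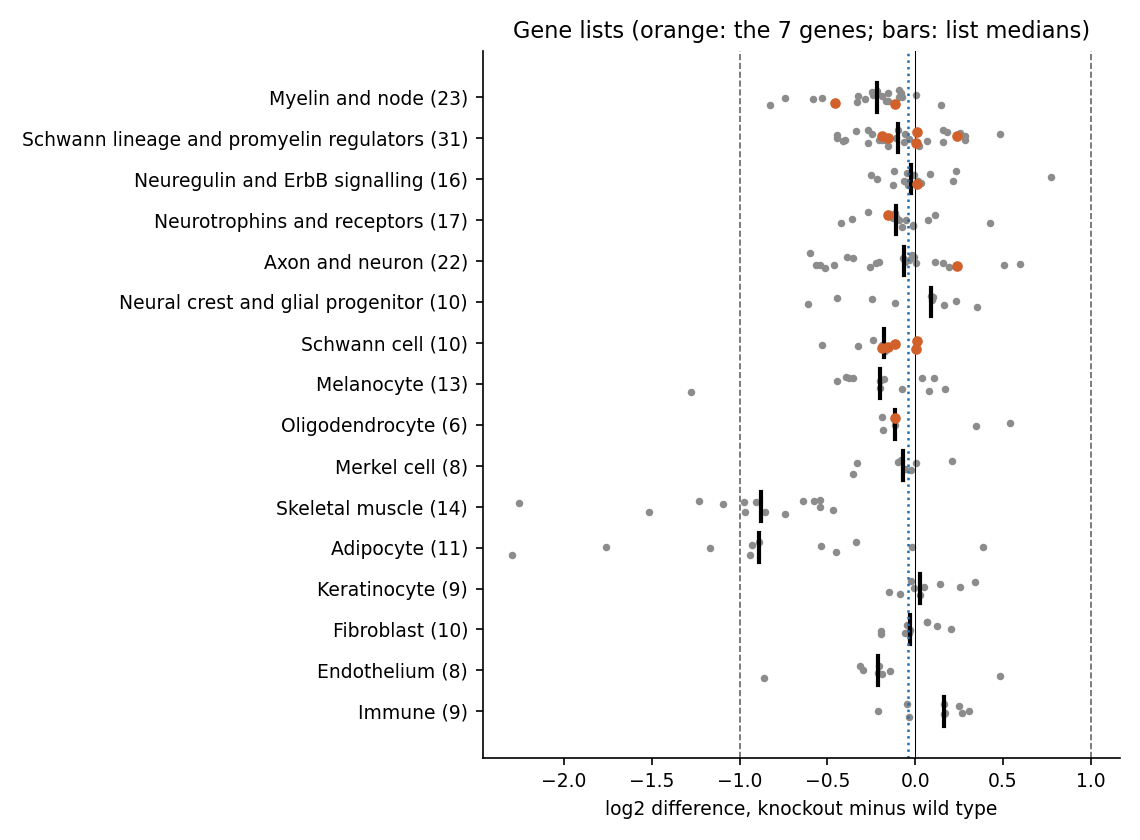
Log2 difference of each measured gene in 16 lists, the number measured in brackets; points are genes of 1 array per genotype, orange points are the 7 members, black bars are list medians, the dotted line is the median of all genes and the dashed lines mark 2-fold. The myelin and node list centres at −0.21, and the skeletal muscle and adipocyte lists at −0.88 and −0.89.

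Around the receptors, the genes of this signalling centred near 0, with the measured neuregulins on either side of it. The neuregulin and ErbB list had 16 of 18 members measured, with a median of −0.02, 9 below 0 and none at 2-fold. Over all genes 56.9% lay below 0 and 1.88% were at least 2-fold apart. The median changed sign under median scaling, to 0.022, and with the damaged areas left out, to 0.0098. Nrg2, a neuregulin, was the list's only gene past 1.5-fold, at 0.77, from a dim 0.0533 in the wild type to 0.0909 in the knockout, on 1 probe. Over all genes 2.36% were at least 1.5-fold higher. Nrg1, the neuregulin that controls myelin thickness, was at −0.22, Nrg4 at −0.13 and the related receptor Egfr at −0.25. Adam10 and Adam17, which shed such ligands from the membrane, were at 0.23 and 0.21. Erbb4 and Nrg3 were not well above background on either array.

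Neurotrophins and their receptors lay slightly below 0, in 14 of 17 measured genes, with a median of −0.11 and none at 1.5-fold. Over all genes 56.9% lay below 0, with a median of −0.04, and 8.41% were at least 1.5-fold apart. Lowest were Bex1, at −0.42, and the neurotrophin receptors Ntrk3, whose 4 probes ran from −0.45 to −0.29, and Ntrk2, with 3 probes from −0.31 to −0.24. The Nogo receptor Rtn4r was at 0.43 and Ripk2 at 0.11.

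Axon and neuron genes, Gap43 among them, divided into 15 below and 7 above 0 of 22 measured, with a median of −0.06. Over all genes 56.9% lay below 0, 6.05% were at least 1.5-fold lower and 2.36% at least 1.5-fold higher. In this list 1 gene was at least 1.5-fold lower, Th, the tyrosine hydroxylase of sympathetic fibres, at −0.60. Also 1 was at least 1.5-fold higher, the RNA-binding protein gene Elavl3, at 0.60. Nefh, a neurofilament chain, and Trpv1, the capsaicin receptor, were at −0.57 and −0.54, and the filament protein gene Prph at 0.50. Th read 0.238 on the wild type array, while Elavl3, Nefh, Trpv1 and Prph were dim, at 0.00964 to 0.0150. Neural crest and glial progenitor genes had a median of 0.09 over 10 measured, 6 of them above 0, beside 43.1% of all genes. Nes, nestin, was at least 1.5-fold lower at −0.61, and Pax3, Twist1 and Sox9 were at 0.35, 0.23 and 0.17. Tfap2a was at −0.25, the mean of a level bright probe (9.79 in wild type, −0.0026) and a dimmer one (0.264, −0.50). The Sox9 probe had spots in the damaged block and in the scattering rows.

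Of the markers of other cell types, those of skeletal muscle and fat had medians farthest from 0. The counts below 0 stand beside 56.9% of all genes, whose median was −0.04. Skeletal muscle markers were below 0 in 14 of 14 genes, with a median of −0.88, from Pvalb at −2.26 to Myod1 at −0.47, and 4 were at least 2-fold lower, beside 1.36% of all genes. Their summed relative signal was 310 in wild type and 187 in the knockout. Adipocyte markers were below 0 in 10 of 11, with a median of −0.89, from Pck1 at −2.30 to Ucp1 at 0.39, and sums of 81.3 and 52.9. Endothelial markers had a median of −0.21, with 7 of 8 below 0, from Cldn5 at −0.86 to Prox1 at 0.48, and sums of 9.62 and 6.95. Melanocyte markers, the other crest-derived cells that use Sox10, had a median of −0.20, with 9 of 13 below 0. They ran from Oca2 at −1.28 to Kit at 0.17, with sums of 32.8 and 29.5. Kit was also counted among the immune markers given below. Merkel cell markers had a median of −0.07, from Isl1 at −0.35 to Atoh1 at 0.21, with sums of 2.96 and 2.47; that median was 0.0024 under quantile normalization. Oligodendrocyte genes, 2 of them shared with the myelin list, had a median of −0.12 over 6 measured, with Olig1 highest at 0.54 and sums of 7.21 and 6.58. The upper ends Prox1, Olig1 and Atoh1 were dim, at 0.0154, 0.0119 and 0.0268 in wild type, and the Prox1 probe lay in the scattering rows.

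Keratinocyte and fibroblast markers had medians of 0.03 and −0.03 and changed sign with the scaling or background correction, between −0.011 and 0.11 and between −0.03 and 0.047, with sums of 421 and 427 and of 367 and 356. Keratinocyte markers ran from Lor at −0.15 to Krt15 at 0.34, and fibroblast markers from Col1a1 at −0.20 to Thy1 at 0.20. Immune markers had a median of 0.17, with 6 of 9 above 0, beside 43.1% of all genes. They ran from Cd3e at −0.21 to H2-Aa at 0.31, with sums of 35.6 and 39.8. These sums add probes of different binding strength, so the probes with the most signal carry them. In the Merkel cell sum Chga alone went from 2.22 in wild type to 1.77 in the knockout, and in the endothelial sum Cldn5 went from 4.14 to 2.28. For each list the gene with the highest mean log2 signal over both arrays was also taken, which does not rank transcript levels. Tnnc2, a troponin of fast muscle fibres, was at −0.54, the fat cell lipid carrier Fabp4 at −0.34, and Dct, an enzyme of melanin synthesis, at −0.07. Krt1 of keratinocytes, Col1a2 of fibroblasts and the mast cell protease gene Cpa3 were at 0.03, −0.06 and 0.16. The muscle, fat and vessel markers were lower on the same array as Pmp22 and most myelin genes, and their part in those values was not tested.

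**Figure D5:**
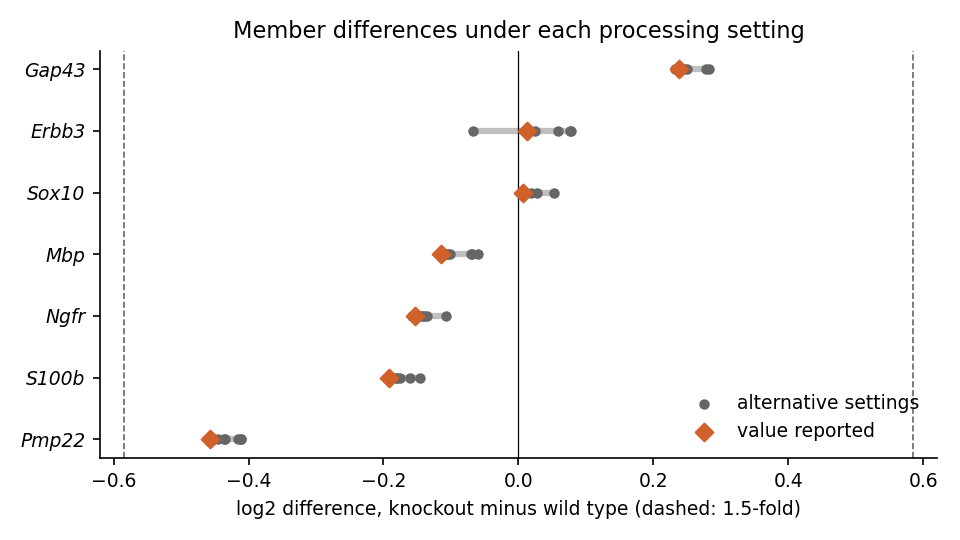
Log2 difference of each member as reported (diamonds) and under up to 12 other processing settings (grey), with dashed lines at 1.5-fold. The order of Pmp22 at the low end and Gap43 at the high end stands in each setting that gives both values, no value reaches 1.5-fold, and 0 is crossed by Erbb3 alone.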

How the data were processed

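RNA from dorsal skin of 5 pooled newborns per genotype (200 ng per labelling, Cy3, per the labels) was hybridised to 1 single-colour Agilent array each, with both arrays on 1 slide. The authors' deposited scanner files give the intensity of 44397 spots, with spatial and multiplicative trends removed within each array, per the file headers (Agilent Feature Extraction, version 11.5.1.1 in the submitters' processing notes). The deposited series matrix holds a ratio: comparison with the scanner values showed each array's intensity divided by a constant (1906 wild type, 2080 knockout), linear and uncentred, with medians of 0.0855 and 0.0840. How the authors chose that constant remains unknown.

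Intensities were taken to log2, 192 outlier-marked spots left out, spots of a probe averaged, and each array's 75th percentile over 39417 probes subtracted. Gene values are means over unsaturated probes that both arrays measured well above background. Names came from RefSeq (GRCm38.p6) by accession for 28325 probes, symbol for 2204 and synonym for 174, and 8714 kept the file's name. The 7 genes had the same probes by either naming. With 1 array per genotype nothing was tested, and the number of arrays limits the precision. Summaries were tested on simulated data. Members and lists were chosen with earlier results of these data known. The text names the 7 genes, Sdr9c7, the 3 highest and lowest of each pathway list, any gene at least 2-fold apart there, and of each marker list the ends and the gene of highest mean log2 signal; a few genes that this rule selects are not reported here. Genes not well above background were named after their values were seen. Alternatives were normexp correction (limma 3.58.1, offset 50), quantile, loess and median scaling, other filters on dim probes, other probe summaries, the series matrix, and damaged slide areas left out.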

Additional observations from a re-analysis of the deposited data

How the results depend on the processing

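Each of the 7 differences stayed within the SD between probes of a gene (0.25) of its reported value under all settings that gave one, and none reached 1.5-fold. That width exceeds the reported difference of each gene except Pmp22, so staying within it does not fix a sign. For genes with 1 probe, the other probe summaries return the same value by construction. The ranges were −0.46 to −0.41 for Pmp22, −0.19 to −0.15 for S100b, −0.16 to −0.11 for Ngfr, −0.12 to −0.06 for Mbp, 0.0050 to 0.05 for Sox10, −0.068 to 0.079 for Erbb3 and 0.23 to 0.28 for Gap43. The median of the 7 ran from −0.14 to −0.06, and that of the myelin and node list from −0.22 to −0.17. Scaling moved the median of all genes by 0.05 or less. With no filter on dim probes, 1 gene each of the neuregulin and ErbB, the axon and neuron and the immune lists was at least 2-fold apart, against 0 as reported. After normexp correction 0 melanocyte markers were at least 2-fold apart, against 1. Leaving out the damaged slide areas left 5 of the 7 members with a value. Leaving out spots marked as outliers is part of the reported values, so they were kept as an alternative chosen after seeing the data. Both arrays lay on 1 slide, so no fit with slide as a block was made. No paired analysis was possible because each genotype is 1 array. Dim probes (Erbb3 and 2 of Mbp) are the least precise, since background is a larger part of their signal.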
